A study of Mus musculus with 12 samples.

Results

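The 10 genes described here encode scavenger and mannose receptors of the macrophage surface and related uptake receptors. They were chosen by name from the 23997 genes listed for every library. No rule on their values was used, but earlier results of these data were known. The 10 are Msr1 and Marco of class A, Cd36, Scarb1 and Scarb2 of class B, the mannose receptor Mrc1, Cd163, Stab1, and the receptor kinases Mertk and Axl. Their RNA was measured by RNA-seq in bone marrow-derived macrophages (BMDMs) of male C57BL/6 mice, WT or Pim1-/-, aged 8 to 10 weeks. Marrow cells of both genotypes were grown for 7 days with recombinant human M-CSF at 10 ng/ml, the growth factor that drives marrow precursors into macrophages, in medium with 20% serum. Pim1-/- mice carry a CRISPR/Cas9 deletion of exons I to V of Pim1, a serine/threonine kinase, in all their cells. Of each genotype, 3 libraries came from untreated cells and 3 from cells treated with LPS, a component of the bacterial outer membrane that activates TLR4, at 100 ng/ml for 4 h. The comparisons asked how LPS changed these receptors in each genotype, how the genotypes differed at each treatment, and whether the response to LPS differed between genotypes. The labels do not say whether the 3 libraries of a group came from separate mice or cultures, so p-values measure only the spread between these samples.

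Scavenger receptors bind modified lipoproteins, apoptotic cells and microbial surfaces, and several of them deliver their ligands to lysosomes. Msr1 and Marco are trimeric receptors with a collagen-like stalk, Cd36 and Scarb1 exchange or take up lipids, and Mrc1 is a C-type lectin that binds mannosylated glycoproteins. Mertk and Axl recognise apoptotic cells through the bridging ligand Gas6, and Mertk also through protein S (Pros1). Both kinases signal to restrain inflammatory responses in macrophages.

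Expression is given in FPKM, in which the fragments of a gene are divided by its transcript length and by a factor for the library, so that levels of different genes can be compared. The steps between low values gave an estimated depth of 31800000 to 40900000 fragments per library, in similar ranges in all groups. The sum of FPKM per library was 452511 to 489710 without treatment and 713307 to 849323 after LPS, so that 1 fragment was worth more FPKM in LPS-treated libraries. Pim1 was at 8.00 to 9.51 FPKM in untreated Pim1-/- libraries against 21.5 to 25.0 in WT, and at 205 to 236 against 630 to 665 after LPS. This value covers the whole gene, including the part outside the deletion. All 8 macrophage markers reached 1 FPKM, but their summed FPKM was 14740 to 15716 in untreated Pim1-/- libraries against 28147 to 30230 in WT. After LPS it was 16448 to 18383 against 31322 to 31848. Lyz2 made up most of these sums, with means of 13297 FPKM in untreated Pim1-/- and 26302 in untreated WT cells. After LPS its means were 13680 and 26785 FPKM, so the sums mostly show this gene. Neutrophil and progenitor markers, 8 of 9 of which were listed, summed to 17.2 to 17.9 FPKM in untreated Pim1-/- cells against 4.00 to 4.50 in WT, and to 9.40 to 12.7 against 7.31 to 9.49 after LPS, with Cd34 highest in Pim1-/- cells. Stromal and endothelial markers summed to 5.38 to 6.23 in untreated WT, 2.79 to 3.64 in untreated Pim1-/-, 37.4 to 39.1 in LPS-treated WT and 19.2 to 21.4 FPKM in LPS-treated Pim1-/- cells, with Kdr highest. The sums were at most 2.82 FPKM for dendritic cell, 0.208 for mast and erythroid, and 0.0762 for B, T and NK cell markers, with Cd3e, Cd3g, Ncr1 and Hba-a1 at 0 in every library. The part of these markers in the results below was not tested. In such bulk samples, fewer cells of a type and less RNA per cell cannot be told apart.

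Differences were tested with limma on log2(FPKM + 1), which makes changes of low genes look smaller than they are, over the 10581 genes that reached 1 FPKM in 3 or more libraries. A call needed a change over 2-fold, p under 0.05 and an FDR under 0.1 by Benjamini-Hochberg adjustment. All 10 receptors were tested, but Marco passed the filter only through LPS-treated libraries, 3 of WT and 2 of Pim1-/- cells, and Cd163 only through untreated ones, so these genes had to differ with treatment. LPS changed 5 of the 10 in WT cells, where 34.8% of all genes tested were called, and 4 of the 10 in Pim1-/- cells, where 25.0% were called. The 3 that rose in WT cells (Msr1, Marco and Axl) and the 2 that rose in Pim1-/- cells (Msr1 and Axl) stand beside 20.1% and 14.6% of all genes called higher, and the 2 that fell in each genotype (Scarb1 and Cd163) beside 14.7% and 10.4% called lower. The split depended on scale, since in WT cells 3 rose and 4 fell after quantile normalization or with equal sums, and 2 rose and 4 fell with libraries scaled to macrophage markers. In Pim1-/- cells 1 rose and 3 fell with equal sums, and 1 rose and 4 fell with the markers. Between the genotypes, 5 of the 10 differed in untreated cells and 4 of the 10 after LPS, against 7.78% and 8.66% of all genes tested. Without treatment 2 were higher in Pim1-/- cells (Msr1 and Cd36) and 3 lower (Mrc1, Stab1 and Mertk), where 4.40% and 3.37% of all genes were called in these directions. After LPS 1 was higher (Cd36) and 3 lower (Marco, Stab1 and Mertk), where these shares were 3.51% and 5.15%. In the difference between genotypes in the response to LPS, 2 of the 10 were called, both negative (Msr1 and Marco), against 6.67% of all genes, of which 2.24% were positive and 4.43% negative. The call of Marco rests on a scale where its untreated values count as near 0. At an FDR under 0.05 with no fold threshold, 8, 7, 8, 8 and 7 of the 10 passed in these 5 comparisons, near the 89.3%, 84.6%, 74.7%, 77.4% and 62.9% of all genes that did so. The median log2 fold change of the 10 genes in Pim1-/- against WT was -0.73 in untreated and -0.77 in LPS-treated cells, where that of all genes tested was -0.05 and -0.03. LPS moved the median of the 10 by 0.08 in WT and 0.05 in Pim1-/- cells, on the log2 scale, since some rose while others fell.

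**Figure D1:**
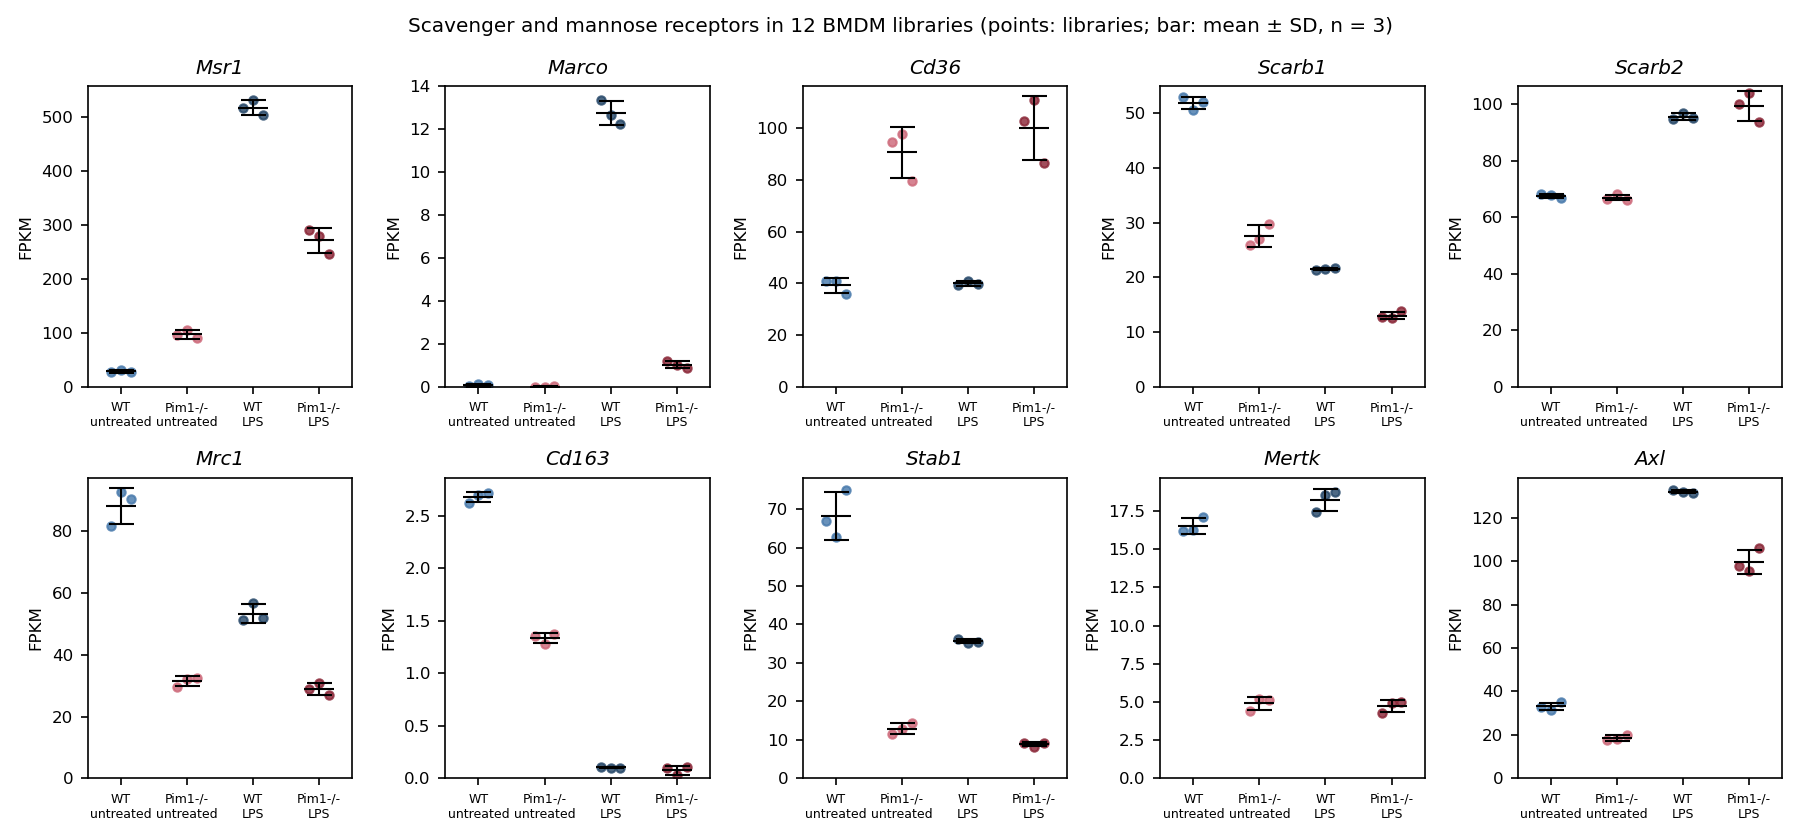
FPKM of each receptor (y axis, linear, from 0, a separate scale for each gene) in the 12 libraries, as points, with the mean and SD of 3 libraries for each of the 4 groups on the x axis. Msr1 was between 504 and 533 FPKM in LPS-treated WT cells and below this in every other library, and Marco exceeded 2 FPKM only in LPS-treated WT cells.

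Msr1, the class A receptor for modified low-density lipoprotein, was higher in Pim1-/- than in WT cells before LPS and lower after it. Msr1 lies on the - strand of chromosome 8 of GRCm38, from 39581685 to 39642673. In untreated WT cells it was at 27.0, 31.6 and 27.7 FPKM, and in untreated Pim1-/- cells at 97.1, 106 and 89.7 FPKM. After LPS it was at 517, 533 and 504 FPKM in WT and at 290, 280 and 246 FPKM in Pim1-/- libraries. No libraries of different groups overlapped, and the order of the genotypes was opposite at the 2 treatments. In untreated cells Msr1 rose 3.40-fold with the deletion, from 28.8 ± 2.51 to 97.7 ± 8.34 FPKM (SD, n = 3 each), which was 1.73 ± 0.07 on the log2 scale (SE, adjusted p = 8.1e-12, limma with Benjamini-Hochberg adjustment). LPS raised it 18.0-fold in WT cells (log2 fold change 4.13 ± 0.07, SE) and 2.79-fold in Pim1-/- cells (1.47 ± 0.07). The 2 responses differed by -2.66 ± 0.10 on the log2 scale (SE, limma adjusted p = 1.6e-11). After LPS the Pim1-/- mean of 272 ± 23.2 FPKM was 1.90-fold below the WT mean of 518 ± 14.5 FPKM (SD, n = 3 each), with a log2 fold change of -0.93 that did not reach 2-fold. This difference depended on scale. It was -0.58 after quantile normalization, -0.72 with libraries set to equal sums and only -0.14 with libraries scaled to the macrophage markers. Relative to the median of all genes, the last was -0.69. In Pim1-/- cells the rise of Msr1 with LPS was under 2-fold on other scales. Its log2 fold change was 0.61 after quantile normalization, 0.81 with equal sums and 0.49 with the markers. These scalings also moved the median of all genes down in this response. Relative to that median, the rises were 0.79, 1.39 and 1.37, against 1.48 as deposited.

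Marco, a class A receptor for bacteria and particles that is known to be induced by microbial products, was near the limit of detection in untreated cells and was 12.4-fold lower in Pim1-/- than in WT cells after LPS. Its gene spans 120474538 to 120505024 on the - strand of chromosome 1. The RefSeq promoter is shown because it holds the only match of the 8 receptor promoters available to the NF-kappaB letters, GGG and TTTCC with 2 bases between them, here in capitals and beginning at position -30 from the annotated start. The window runs from 250 bases before to 50 after the start, on the - strand of GRCm38.p6 at chr1:120504975-120505274, and 1.63% of 32851 mouse promoters of this length hold these letters on either strand.
Marco: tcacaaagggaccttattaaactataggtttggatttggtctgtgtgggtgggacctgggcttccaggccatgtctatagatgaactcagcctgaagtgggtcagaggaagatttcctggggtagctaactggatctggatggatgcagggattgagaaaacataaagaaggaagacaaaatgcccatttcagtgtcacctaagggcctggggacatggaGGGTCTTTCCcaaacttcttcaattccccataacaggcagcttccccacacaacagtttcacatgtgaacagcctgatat
In untreated cells Marco was at 0.0148, 0.124 and 0.0634 FPKM in WT and at 0.0121, 0 and 0.0253 FPKM in Pim1-/- libraries, which is about 14 and 3 fragments over the 3 libraries of each group. These groups overlapped. Their ratio of Pim1-/- to WT had a 95% exact binomial interval of 0.0371 to 0.721, which covers counting error only, while limma gave a log2 fold change of -0.08 with an adjusted p of 0.314. After LPS, Marco was at 13.3, 12.6 and 12.3 FPKM in WT and at 1.21, 1.02 and 0.862 FPKM in Pim1-/- libraries. The LPS-treated groups were far apart, and every LPS-treated library lay above every untreated one. The genotypes differed by a log2 fold change of -2.76 ± 0.07 after LPS (SE, limma adjusted p = 1.8e-14), and the counting interval of the decrease was 10.4-fold to 14.7-fold. LPS increased Marco 189-fold in WT cells by the ratio of mean FPKM, and the ratio of fragments per unit of depth was 193 with a counting interval of 114 to 353. In Pim1-/- cells the latter ratio was 77.7 with a wide counting interval of 26.1 to 381, since it rests on 3 fragments in untreated cells. The intervals of the 2 ratios overlap, so a difference between the genotypes in the fold of the response was not detectable at this depth. On the log2(FPKM + 1) scale the responses were 3.69 ± 0.07 in WT and 1.00 ± 0.07 in Pim1-/- cells (SE), the latter just under 2-fold. They differed by -2.69 ± 0.09 (limma adjusted p = 6.6e-12). Marco passed the filter only through LPS-treated libraries, so a rise with LPS was fixed in advance. With a pseudocount of 0.1 in place of 1, the responses were 6.31 in WT and 3.32 in Pim1-/- cells. Both depend on the pseudocount, since untreated values were near 0.

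Cd36, the class B receptor for long-chain fatty acids and oxidised lipoprotein, was higher in Pim1-/- cells at both treatments and was not called in the response to LPS in either genotype. It lies on the - strand of chromosome 5 from 17781690 to 17888801. Untreated WT libraries held 40.9, 40.8 and 36.0 FPKM and LPS-treated WT libraries 39.2, 40.9 and 39.9 FPKM. Pim1-/- libraries held 94.6, 97.7 and 79.5 FPKM without treatment and 103, 111 and 86.4 FPKM after LPS. The lowest Pim1-/- library was well above the highest WT library, whereas treated and untreated libraries of a genotype overlapped. Cd36 rose with the deletion 2.31-fold in untreated cells (log2 fold change 1.18 ± 0.09, SE, limma adjusted p = 6.8e-09) and 2.50-fold in LPS-treated cells (1.29 ± 0.09, adjusted p = 1.9e-09). It was the only receptor of the 10 called higher in Pim1-/- cells at both treatments, also after quantile normalization and with libraries set to equal sums. The response to LPS was 0.029 in WT cells, with a 95% interval of -0.15 to 0.21, and 0.14 in Pim1-/- cells (limma adjusted p = 0.142). Pim1-/- libraries pair by number in their values, though the labels state no pairing, and the response was positive in 3 of 3 pairs. The adjusted p was 0.025 from limma over all 12 libraries with the replicate number as a block. This fit includes the WT libraries, whose treatments did not all pair by number. The response turned to -0.76 in WT and -0.52 in Pim1-/- cells when libraries were set to equal sums.

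Scarb1, the receptor that takes up cholesteryl esters from high-density lipoprotein, fell with LPS and was lower in Pim1-/- cells. Its gene spans 125277087 to 125341094 on the - strand of chromosome 5. It was at 52.9, 50.7 and 51.9 FPKM in untreated WT and at 25.9, 26.9 and 29.8 FPKM in untreated Pim1-/- libraries. After LPS it was at 21.3, 21.6 and 21.6 FPKM in WT and at 12.7, 12.5 and 13.8 FPKM in Pim1-/- libraries. The 4 groups did not overlap, and untreated WT cells stood highest. LPS decreased Scarb1 2.41-fold in WT cells (log2 fold change -1.23 ± 0.05, SE) and 2.12-fold in Pim1-/- cells (-1.03 ± 0.05), and the second decrease was under 2-fold, at -0.97, without the third untreated Pim1-/- library. The responses differed by 0.20 (limma adjusted p = 0.0243), which is under the 2-fold threshold. In Pim1-/- against WT cells its log2 fold change was -0.89 without treatment and -0.69 after LPS, both under 2-fold, and the latter became 0.057 with libraries scaled to the macrophage markers.

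Scarb2, a lysosomal membrane protein of the same class that carries beta-glucocerebrosidase to lysosomes, differed little. It lies on the - strand of chromosome 5 from 92441314 to 92506833. It was between 66.2 and 68.2 FPKM in all untreated libraries and between 93.5 and 104 FPKM in all LPS-treated ones. The genotypes overlapped at both treatments. The log2 fold change of Pim1-/- against WT had a 95% interval of -0.10 to 0.07 without treatment and of -0.03 to 0.14 after LPS. The shift with LPS was 1.41-fold in WT and 1.48-fold in Pim1-/- cells, and its direction turned when libraries were quantile normalized (log2 fold changes of -0.46 and -0.17).

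**Figure D2:**
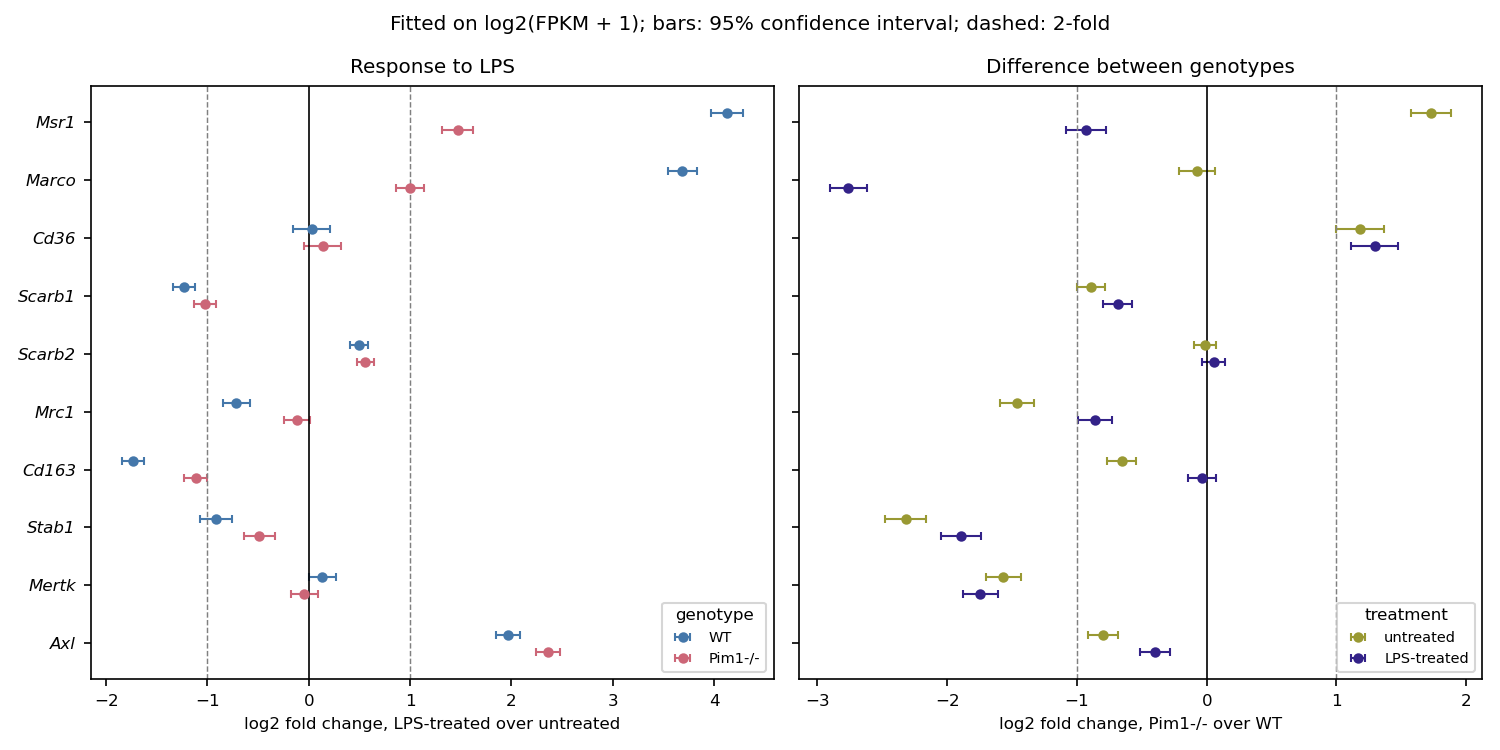
Log2 fold changes of the 10 receptors from limma on log2(FPKM + 1) (x axes), with LPS over untreated on the left for each genotype and Pim1-/- over WT on the right for each treatment, as points with 95% confidence intervals, where dashed lines mark 2-fold. Msr1 lies at 1.73 before and -0.93 after LPS on the right, while Stab1 and Mertk lie below -1.5 at both treatments.

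Mrc1, Stab1 and Mertk were lower in Pim1-/- cells before LPS, and Stab1 and Mertk also after it. Their RefSeq promoters are shown because these genes shared that direction, on GRCm38.p6 at chr2:14229164-14229463 (+ strand), chr14:31168592-31168891 (- strand) and chr2:128698665-128698964 (+ strand), each from 250 bases before to 50 after the start. Capitals mark the letters of PU.1, AGGAAGT, which Mrc1 holds as the reverse complement beginning at position -211 and which 9.35% of all promoters hold on either strand.
Mrc1: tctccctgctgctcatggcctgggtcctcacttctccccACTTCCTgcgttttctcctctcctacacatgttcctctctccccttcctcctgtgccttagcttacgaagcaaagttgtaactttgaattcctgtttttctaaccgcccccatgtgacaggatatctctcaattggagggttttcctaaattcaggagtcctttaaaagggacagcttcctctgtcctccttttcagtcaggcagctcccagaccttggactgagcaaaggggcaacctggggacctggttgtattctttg
Stab1: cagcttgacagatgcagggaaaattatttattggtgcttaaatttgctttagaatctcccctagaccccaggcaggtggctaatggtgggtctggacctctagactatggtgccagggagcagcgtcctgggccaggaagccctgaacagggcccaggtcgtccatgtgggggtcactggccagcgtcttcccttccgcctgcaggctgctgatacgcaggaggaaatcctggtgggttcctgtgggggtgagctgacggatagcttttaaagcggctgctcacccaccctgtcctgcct
Mertk: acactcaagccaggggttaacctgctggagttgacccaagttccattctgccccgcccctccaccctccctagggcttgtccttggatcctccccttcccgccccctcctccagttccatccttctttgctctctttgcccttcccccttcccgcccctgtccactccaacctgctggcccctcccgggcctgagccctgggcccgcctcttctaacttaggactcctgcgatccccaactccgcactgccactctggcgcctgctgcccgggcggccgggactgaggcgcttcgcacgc
The promoters of Stab1 and Mertk matched none of the 8 motifs searched on both strands. Besides the PU.1 and NF-kappaB letters, these were AP-1 (TGACTCA, in 5.2% of all promoters), ISRE (GAAA repeated after 2 bases, 3.44%), GAS (TTC and GAA with 3 bases between them, 8.3%), LXR (AGGTCA repeated after 4 bases, 0.0152%), E-box (CACGTG, 7.15%) and MAF (TGCTGAC, 4.67%), and no match in the 8 receptor promoters overlapped another. Promoters of Cd36, Scarb2, Cd163 and Axl were also searched and held no match, while those of Msr1 and Scarb1 were not analysed here.

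Mrc1, the mannose receptor CD206, lies on the + strand of chromosome 2 from 14229392 to 14332057 and had the highest level of the 10 in untreated WT cells. It was at 81.6, 92.7 and 90.5 FPKM in untreated WT and at 29.6, 32.3 and 32.4 FPKM in untreated Pim1-/- libraries. LPS-treated libraries held 51.3, 56.8 and 51.8 FPKM in WT and 28.9, 30.9 and 27.1 FPKM in Pim1-/- libraries. WT stood above Pim1-/- at both treatments, and the 2 Pim1-/- groups overlapped. In each same-numbered Pim1-/- pair Mrc1 was lower after LPS, with an adjusted p of 0.025 from limma with the replicate number as a block. Mrc1 fell by 1.46 on the log2 scale with the deletion in untreated cells, or 2.81-fold (SE 0.06, limma adjusted p = 9.1e-12). After LPS the difference was 1.84-fold (log2 fold change -0.86), under the threshold. In response to LPS its log2 fold change was -0.72 in WT and -0.12 in Pim1-/- cells, and the difference of 0.60 ± 0.09 (SE, limma adjusted p = 2.4e-05) did not reach 2-fold. The decrease in WT cells was called under other scalings, at -1.60 after quantile normalization, -1.52 with equal sums and -1.73 with the macrophage markers. That in Pim1-/- cells was called with the markers, at -1.08. These scalings also moved the median of all genes down in the response to LPS. Relative to it, the decreases were -1.43, -0.85 and -0.91 in WT cells, and -0.20 in Pim1-/- cells with the markers. With libraries scaled to the macrophage markers, its genotype difference was -0.74 in untreated cells and only -0.088 after LPS. Relative to the median of all genes, these were -1.32 and -0.64.

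Stab1, or stabilin-1, which clears modified lipoproteins and extracellular matrix fragments, had the largest genotype difference of the 10 in untreated cells. The gene occupies 31139013 to 31168641 on the - strand of chromosome 14. It was at 67.0, 62.7 and 74.9 FPKM in untreated WT and at 11.5, 12.7 and 14.3 FPKM in untreated Pim1-/- libraries. LPS-treated libraries held 36.2, 35.2 and 35.5 FPKM in WT and 9.08, 8.27 and 9.22 FPKM in Pim1-/- libraries. The lowest WT library of either treatment was more than 2-fold above the highest Pim1-/- library. Stab1 fell by 2.32 on the log2 scale in untreated cells, or 5.30-fold (SE 0.07, limma adjusted p = 2.4e-13), and by 1.89 after LPS, or 4.02-fold (SE 0.07, adjusted p = 3.3e-12). It was called lower at both treatments under each of the scalings tried, with -1.63 in untreated and -1.13 in LPS-treated cells when libraries were scaled to the macrophage markers. LPS shifted Stab1 1.91-fold downward in WT and 1.45-fold downward in Pim1-/- cells, neither of which reached 2-fold on the deposited scale. Its decrease in WT cells was called at -1.69 after quantile normalization, -1.71 with equal sums and -1.92 with the macrophage markers. That in Pim1-/- cells was called at -1.10 with equal sums and -1.42 with the markers. Relative to the median of all genes, which these scalings moved down, the decreases were -1.52, -1.04 and -1.10 in WT cells. In Pim1-/- cells they were -0.52 and -0.53.

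Cd163, the receptor for haemoglobin bound to haptoglobin, was low in untreated cells and lower still after LPS. It lies on the + strand of chromosome 6 from 124304656 to 124330527. It was at 2.62, 2.70 and 2.72 FPKM in untreated WT and at 1.35, 1.28 and 1.37 FPKM in untreated Pim1-/- libraries. After LPS, values were 0.112, 0.0955 and 0.102 FPKM in WT and 0.0942, 0.0282 and 0.108 FPKM in Pim1-/- libraries, or about 29 fragments in each group. The genotypes were apart without treatment and overlapped after LPS. LPS decreased Cd163 26.0-fold in WT and 17.4-fold in Pim1-/- cells by mean FPKM, with counting intervals of 18.2-fold to 39.3-fold and 11.6-fold to 25.3-fold. On the log2(FPKM + 1) scale the decreases were -1.74 and -1.12 (limma adjusted p = 1.5e-14 and 7.0e-12). Since Cd163 passed the filter only through untreated libraries, a fall with LPS was fixed in advance, and these p-values are no evidence for it. The untreated genotype difference was 2.01-fold by mean FPKM and -0.66 on the log2(FPKM + 1) scale, under the threshold. After LPS the ratio of Pim1-/- to WT fragments was 0.776 with a counting interval of 0.447 to 1.35, so a difference was not detectable at this depth.

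Mertk, the kinase by which macrophages take up apoptotic cells, was lower in Pim1-/- cells at both treatments. The gene occupies 128698956 to 128802894 on the + strand of chromosome 2. It was at 16.2, 16.2 and 17.1 FPKM in untreated WT and at 4.43, 5.19 and 5.15 FPKM in untreated Pim1-/- libraries. After LPS it was at 17.4, 18.5 and 18.8 FPKM in WT and at 4.28, 4.95 and 5.00 FPKM in Pim1-/- libraries. All WT libraries stood above all Pim1-/- libraries, and within Pim1-/- the treatments overlapped. Mertk fell by 1.57 on the log2 scale with the deletion in untreated cells, or 3.36-fold (SE 0.06, limma adjusted p = 5.4e-12), and by 1.75 after LPS, or 3.85-fold (SE 0.06, adjusted p = 1.7e-12). With libraries scaled to the macrophage markers both differences came to just under 2-fold, at -0.94 in untreated cells and with less than 0.01 to spare after LPS. The response to LPS was 0.14 in WT and -0.043 in Pim1-/- cells, neither called, and it was -0.63 in WT cells with libraries set to equal sums. On the deposited scale every LPS-treated WT library lay above every untreated one. By limma the adjusted p in WT cells was 0.055, and 0.0105 with the replicate number as a block. WT libraries of the 2 treatments did not all pair by number.

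Axl, the kinase of the same family that is known to be induced by inflammatory stimuli, rose with LPS in both genotypes. It lies on the - strand of chromosome 7 from 25757273 to 25788705. It was at 32.7, 31.5 and 35.0 FPKM in untreated WT and at 17.5, 18.3 and 20.0 FPKM in untreated Pim1-/- libraries. With LPS, libraries held 133, 132 and 131 FPKM in WT and 97.7, 95.4 and 106 FPKM in Pim1-/- libraries. The 4 groups did not overlap, with LPS-treated WT cells highest. LPS increased Axl 3.99-fold in WT cells (log2 fold change 1.96 ± 0.05, SE, limma adjusted p = 6.5e-15) and 5.35-fold in Pim1-/- cells (2.36 ± 0.05, adjusted p = 8.9e-16). With libraries scaled to the macrophage markers the rise in WT cells was 0.94, under 2-fold, and relative to the median of all genes it was 1.76. The responses differed by 0.40 ± 0.08 (SE, limma adjusted p = 3.7e-04), which is under the 2-fold threshold. In Pim1-/- against WT cells the log2 fold change was -0.80 without treatment and -0.40 after LPS, both under 2-fold, and the latter turned to 0.38 with libraries scaled to the macrophage markers. Tyro3, the other kinase of the family, was at most 0.632 FPKM in any library.

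**Figure D3:**
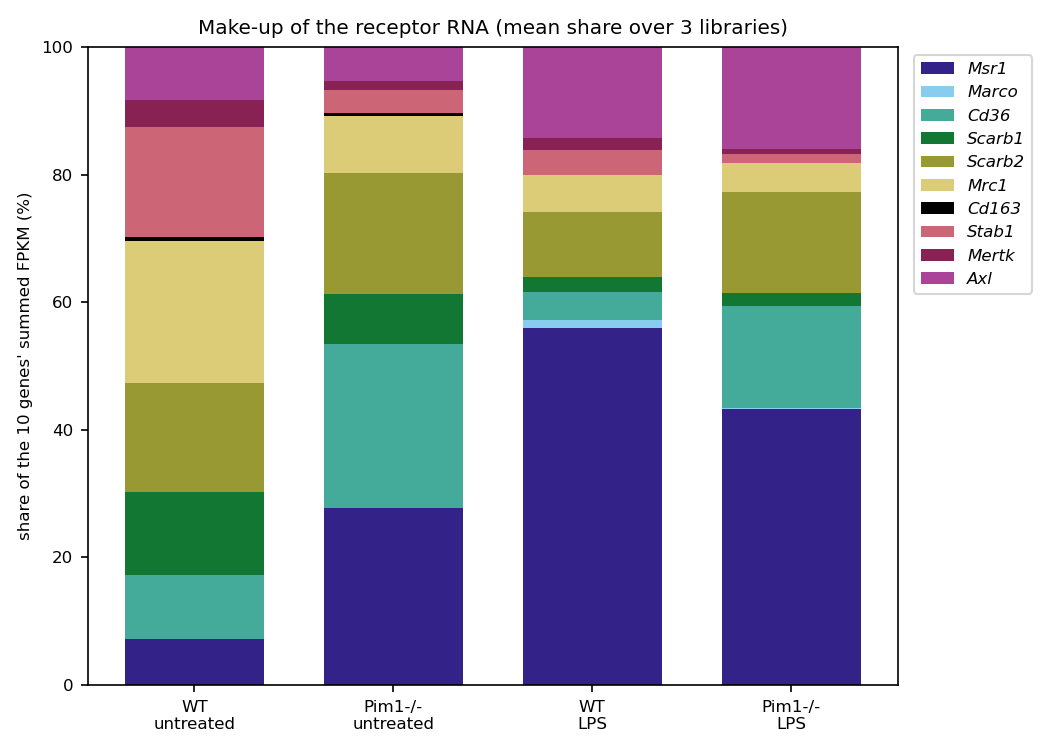
Mean share of each receptor in the summed FPKM of the 10 genes (y axis, in percent) for the 4 groups of 3 libraries, stacked to 100%. Msr1 took 7.26% in untreated WT and 55.9% in LPS-treated WT cells, and Mrc1 with Stab1 took less in Pim1-/- than in WT cells at each treatment.

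The order of the receptors by level differed between the groups. In untreated WT cells Mrc1 stood first with 22.3% of the summed FPKM of the 10 genes, followed by Stab1 and Scarb2, whose libraries overlapped. In untreated Pim1-/- cells Msr1 with 27.7% and Cd36 with 25.7% stood first and overlapped, while Mrc1 took 8.94% and Stab1 3.66%. After LPS Msr1 stood first in both genotypes, with 55.9% in WT and 43.3% in Pim1-/- cells. Axl was next in WT cells, whereas Cd36, Axl and Scarb2 overlapped in Pim1-/- cells, where Cd36 took 15.9% against 4.32% in WT. The summed FPKM of the 10 genes was 396 ± 6.84 in untreated WT, 352 ± 15.5 in untreated Pim1-/-, 927 ± 18.7 in LPS-treated WT and 628 ± 34.4 in LPS-treated Pim1-/- cells (SD, n = 3 each). Marco in untreated cells and Cd163 after LPS stood last in both genotypes.

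Ratios of a pair of receptors within a library do not change when the library is multiplied by a single factor, as in scaling to equal sums or to markers, though quantile normalization can change them. The ratio of Mrc1 to Msr1 was 3.07 ± 0.174 in untreated WT and 0.323 ± 0.0331 in untreated Pim1-/- cells (SD, n = 3 each). After LPS it was 0.103 ± 0.00369 in WT and 0.107 ± 0.00615 in Pim1-/- cells, and the genotypes overlapped. The ratio of Stab1 to Msr1 was 2.39 ± 0.370 in untreated WT and 0.133 ± 0.0235 in untreated Pim1-/- cells, and 0.0688 ± 0.00244 against 0.0327 ± 0.00417 after LPS. The ratio of Scarb1 to Cd36, a pair of the same class, was 1.32 ± 0.105 in untreated WT against 0.308 ± 0.0575 in untreated Pim1-/- cells, and 0.538 ± 0.00928 against 0.132 ± 0.0245 after LPS. The genotypes did not overlap in these 2 ratios at either treatment. The ratio of Mertk to Axl was 0.50 ± 0.014 in WT and 0.264 ± 0.0167 in Pim1-/- cells without treatment, and 0.138 ± 0.00620 and 0.0476 ± 0.00409 after LPS. Here too no group overlapped another, and LPS-treated Pim1-/- cells had the least Mertk per Axl.

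**Figure D4:**
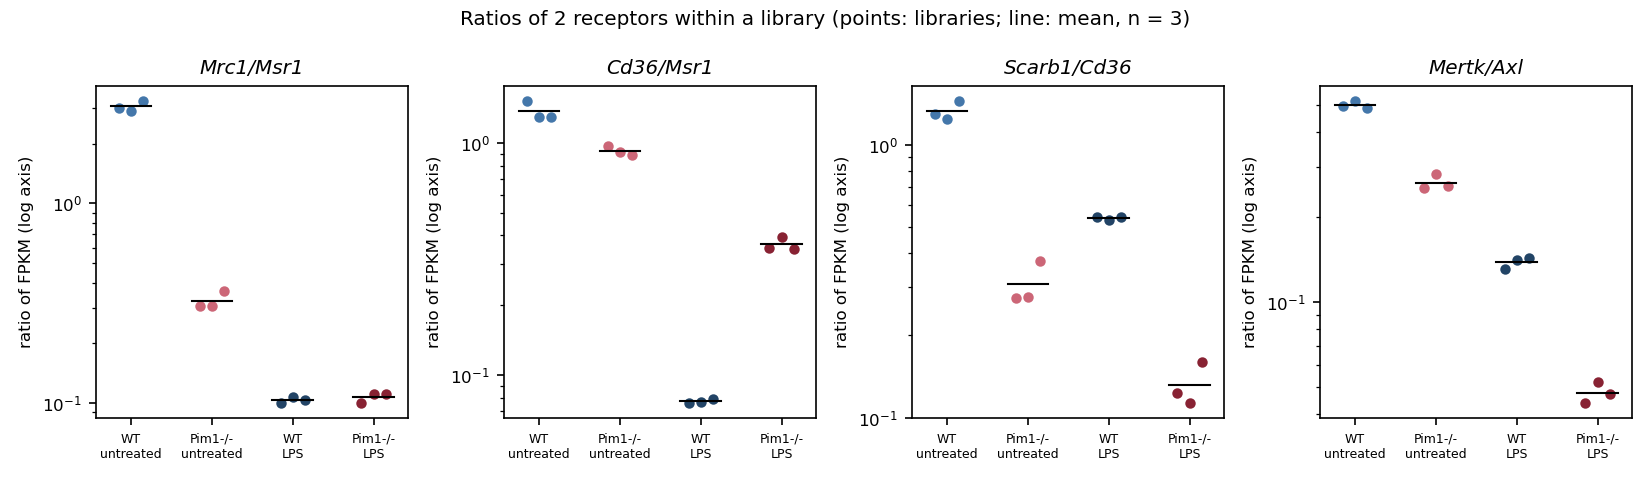
Ratios of FPKM of 2 receptors within each library (y axes, log scale), as points, with the mean of 3 libraries as a line for each of the 4 groups. Mrc1/Msr1 was 3.07 in untreated WT and 0.323 in untreated Pim1-/- cells and did not separate the genotypes after LPS, while Mertk/Axl separated all 4 groups.

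Other genes of uptake and lipid handling were tallied by the same thresholds. Of 16 other scavenger receptors, 5 passed the filter. Of these 5, 2 (Scarf1 and Cxcl16) rose with LPS in both genotypes, beside 20.1% of all genes called higher in WT and 14.6% in Pim1-/- cells. Cxcl16 rose from 55.2 to 361 FPKM in WT and from 23.4 to 348 FPKM in Pim1-/- cells. Its response differed between genotypes by 1.15, the 1 call of the 5 in that comparison, where 2.24% of all genes were called positive. In untreated Pim1-/- cells 2 of the 5 were lower, Colec12 and Cxcl16, with log2 fold changes of -1.08 and -1.21, beside 3.37% of all genes. After LPS 1 was lower, Scarf1 with -1.16, beside 5.15% of all genes. Cd68, a lysosomal member that is also among the macrophage markers, was at 1161 FPKM in untreated WT and 956 FPKM in untreated Pim1-/- cells and was not called in any comparison.

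Of 17 genes of apoptotic cell uptake, 13 were tested and none was called between the genotypes at either treatment, against 7.78% of all genes without treatment and 8.66% after LPS. LPS raised 4 and lowered 3 of them in WT cells, and raised 3 and lowered 3 in Pim1-/- cells, where 20.1% and 14.7% of all genes were called in these directions in WT and 14.6% and 10.4% in Pim1-/- cells. Among them were Xkr8, a scramblase subunit that exposes phosphatidylserine (3.53 in WT and 2.97 in Pim1-/- cells on the log2 scale), and the integrin subunits Itgav (3.10 and 2.52) and Itgb3 (-2.14 and -1.65). Gas6, a ligand of Mertk and Axl, was at 444 FPKM in untreated WT, 245 in untreated Pim1-/-, 182 in LPS-treated WT and 138 in LPS-treated Pim1-/- cells, and its decrease with LPS was called in WT cells (log2 fold change -1.28). Pros1 was at 14.3 FPKM in untreated WT and 9.06 in untreated Pim1-/- cells and was not called in any comparison.

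All 11 genes of lipid handling after uptake were tested. LPS lowered 6 of them in WT cells, and lowered 2 and raised 1 in Pim1-/- cells, beside 14.7% of all genes called lower in WT and 10.4% lower and 14.6% higher in Pim1-/- cells. Nceh1 and Soat1, which hydrolyse and form cholesteryl esters, fell in both genotypes, with log2 fold changes of -2.01 and -1.93 in WT cells, and of -1.54 and -1.38 where Pim1 was deleted. Abca1, which exports cholesterol to lipoprotein, was at 13.8 FPKM in untreated WT and 2.46 FPKM in untreated Pim1-/- cells (log2 fold change -2.10, limma adjusted p = 5.3e-14) and rose with LPS in Pim1-/- cells to 7.17 FPKM. Its response to LPS differed between genotypes by 1.71, that of Abcg1 by 1.21 and that of Fabp4, a fatty acid carrier, by 1.69. These were the 3 genes of the list called in that comparison, where 6.67% of all genes were called and 2.24% were positive. Between genotypes, 1 of the 11 was called without treatment and 1 after LPS, beside 7.78% and 8.66% of all genes. After LPS, Fabp4 was higher in Pim1-/- cells (162 against 74.0 FPKM).

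Among transcription regulators of macrophage genes, LPS raised Spi1, which encodes PU.1, and lowered Rxra and Pparg in both genotypes. Maf was lower in Pim1-/- cells at both treatments, at 105 FPKM in untreated WT and 40.0 FPKM in untreated Pim1-/- cells, and at 136 and 34.6 FPKM after LPS (log2 fold changes -1.37 and -1.94). Spi1 was at 801 FPKM in LPS-treated WT and 365 FPKM in LPS-treated Pim1-/- cells (log2 fold change -1.13). No regulator on the list was called in the difference between genotypes in the response to LPS, where 6.67% of all genes were. Nr1h3, which encodes the oxysterol receptor LXR alpha, was at 10.1, 6.99, 17.3 and 9.81 FPKM in untreated WT, untreated Pim1-/-, LPS-treated WT and LPS-treated Pim1-/- cells and was not called.

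The macrophage markers that moved with genotype also bear on the scale of these values. Of the 8 markers, 7 had a log2 fold change below 0 in Pim1-/- against WT cells at each treatment. The median of the 8 was -0.74 without treatment and -0.81 after LPS, where that of all genes tested was -0.05 and -0.03. At each treatment 2 of the 8 were called lower, beside 3.37% and 5.15% of all genes. Among these 2 was Csf1r, the receptor for M-CSF (-1.59 and -1.32). Scaling libraries to the mean log2 value of the 8 markers moved the median of all genes between genotypes. The shift was 0.64 in untreated cells and 0.58 after LPS. LPS itself raised 3 of the 8 markers in each genotype and lowered 0, beside 20.1% and 14.6% of all genes called higher. The marker scaling moved the median of all genes in the response to LPS by -0.82 in WT and by -0.87 in Pim1-/- cells. Responses to LPS under it include this shift. Msr1 and Cd36 stayed above WT in untreated cells under this scaling, with log2 fold changes of 2.47 and 1.92, and relative to the median of all genes they were at 1.88 and 1.33. Mrc1 and Mertk relative to that median were at -1.32 and -1.52. Scaling to equal sums moved the median of all genes by -0.67 in the response of WT cells to LPS and by -0.57 in that of Pim1-/- cells, but by 0.043 between genotypes in untreated cells.

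**Figure D5:**
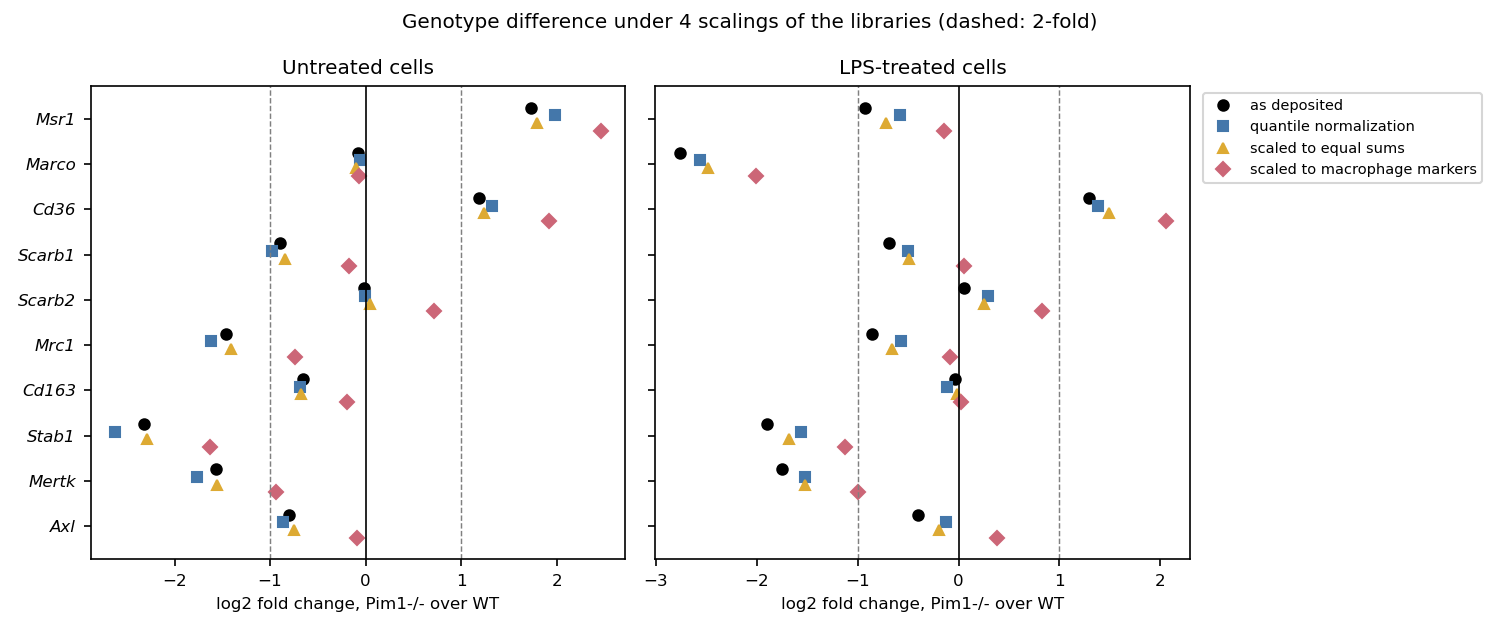
Log2 fold change of Pim1-/- over WT (x axes) for the 10 receptors in untreated cells (left) and LPS-treated cells (right) with the values as deposited, after quantile normalization, with libraries scaled to equal sums and with libraries scaled to 8 macrophage markers, where dashed lines mark 2-fold. Stab1 lies below -1 and Cd36 above 1 under each scaling, while Axl after LPS moves from -0.40 as deposited to 0.38 under scaling to the macrophage markers.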

How the data were processed

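RNA-seq was performed on 12 libraries, 3 in each of 4 groups given by the labels. The authors trimmed reads (cutadapt 1.18), mapped them (TopHat2 2.0.13), computed expression with Cuffdiff 2.2.1 and deposited a column of FPKM per library. The versions come from the submitters' processing notes. The columns name no unit, which was read as FPKM from the use of Cuffdiff, the decimals and the sums. The notes name mm10 whereas the methods name rat rn5, and 22694 of 23997 gene names were mouse symbols of GENCODE M21. How libraries were normalized and which annotation was used is not given in the sources used here. FPKM holds no counts. Of 2668 low values in 2054 genes with 1 transcript, 78.9% came within 0.1 of a whole number of fragments, where chance gives 20%, and depth was estimated from this step. Fragment numbers per gene are therefore estimates, made with the longest coding transcript and an assumed fragment of 200 nt, and intervals from them (exact binomial, 95%) cover counting error only.

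No further scaling was applied. A gene was kept where 3 or more libraries reached 1 FPKM, and limma 3.58.1 in R 4.3.3 fitted log2(FPKM + 1) by group, with a mean-variance trend over all 12 libraries. Adjusted p-values are Benjamini-Hochberg values over all 10581 genes tested. The thresholds (more than 2-fold, p under 0.05, FDR under 0.1) are those the methods give for increased genes, applied here in both directions. The fit was tested on simulated data. Between replicates, Pearson's r across genes was 0.9958 to 0.9978, and every pair of replicates differed by more than sampling noise.

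Libraries of different groups share replicate numbers. Over 3646 genes, same-numbered deviations from the group means correlated at 0.33, 0.37 and 0.46 between untreated genotypes and at 0.43, 0.54 and 0.68 between treatments of Pim1-/- cells, which pairs these libraries by the values alone. In the other 2 comparisons not every correlation was over 0.1.

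The 10 genes and the lists were chosen with earlier results of these data known. Genes named are the 10 receptors, Pim1, the 3 called genes with the largest change per pathway list and comparison, Gas6, Pros1, Tyro3, Abca1, Abcg1, Nr1h3 and Cd68, the highest gene of each marker list, and the 3 genes nearest in pattern to each receptor. An item that falls under this rule is not reported here. Abca1, Abcg1, Fabp4 and Cxcl16 in the difference of responses, Csf1r, and the markers listed at 0 were named after their values were seen. Alternatives were a pseudocount of 0.1, a filter of 5 FPKM or none, quantile and median-ratio scaling, fits of the compared groups alone, the replicate block, no trend, an FDR under 0.05 without a fold threshold, and leaving out each library. Scaling to equal sums and to macrophage markers were chosen after seeing the data. Promoters were taken from RefSeq (GRCm38.p6), with 8 of 10 receptors matched. Tables and figures were made in Python 3.11.15 (matplotlib 3.10.9, numpy 2.4.6, pandas 2.3.3).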

Additional observations from a re-analysis of the deposited data

Results flagged for a closer look

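On the log2(FPKM + 1) scale, 2 of the 10 receptors were called in a test of the difference between genotypes in the response to LPS. For Msr1 the difference was -2.66 on the log2(FPKM + 1) scale (limma adjusted p = 1.6e-11), and it stayed between -2.73 and -2.59 when any single library was left out. For Marco it was -2.69 (limma adjusted p = 6.6e-12), with a range of -2.75 to -2.63 over the same fits. Marco passed the filter on low values only through LPS-treated libraries, mainly those of WT cells, and this difference is on a scale where its untreated values count as near 0. By fragments, the responses of Marco were 193-fold (counting interval 114 to 353) in WT and 77.7-fold (26.1 to 381) in Pim1-/- cells. These intervals overlap, so for Marco a difference in the fold of the response was not detectable at this depth.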

How the results depend on the processing

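Leaving out the filter, a filter of 5 FPKM (which removed Cd163), median-ratio scaling, fits of the compared groups alone, limma without a trend and the replicate block changed none of 285 calls on single receptors, and with the replicate block, on the pairing by number, the counts stayed at 5 and 4 for LPS in WT and Pim1-/- cells, 5 and 4 between genotypes without and with LPS, and 2 for the difference in response. The difference in response needs all groups. Without a fold threshold and with an FDR under 0.05, these counts were 8, 7, 8, 8 and 7. Quantile normalization gave 4 receptors for the difference in response, with Mrc1 and Stab1 added, and scaling to macrophage markers gave 3 between untreated genotypes, without Mrc1 and Mertk. Direction turned mostly for small responses to LPS. Quantile normalization, equal sums and the macrophage markers also moved the median of all genes down in that response. In WT cells, Cd36, Scarb2 and Mertk came to -0.68, -0.46 and -0.21 after quantile normalization, to -0.76, -0.31 and -0.63 with equal sums, and to -0.98, -0.53 and -0.83 with macrophage markers. In Pim1-/- cells, Cd36 and Scarb2 came to -0.62 and -0.17, to -0.52 and -0.10, and to -0.84 and -0.42 in the same order, and Mertk to 0.035 after quantile normalization. Between genotypes, Scarb2 in untreated cells came to 0.044 with equal sums and 0.72 with macrophage markers, and the latter gave 0.057, 0.021 and 0.38 for Scarb1, Cd163 and Axl after LPS. The difference in response of Mertk came to 0.24 after quantile normalization and 0.032 with equal sums. With 1 library left out, 594 of 600 calls were the same. The response to LPS of Cd36 in WT cells ranged from -0.030 to 0.059 (below 0 without the third untreated library) and that of Mertk in Pim1-/- cells from -0.10 to 0.017 (above 0 without the first LPS-treated library), that of Scarb1 in Pim1-/- cells missed 2-fold once, and that of Marco in Pim1-/- cells, from 0.94 to 1.06, passed it in 3 fits. Other causes of these shifts were not tested. Depth limits Marco in untreated cells and Cd163 after LPS.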

Other observations

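The genes nearest in pattern to each receptor were found by the root mean square difference of log2(FPKM + 1), centred on each gene's mean over the 12 libraries, among all genes tested. This is a description in which all points share the 4 groups. The nearest were Ppa1, Rbl1 and Cycs for Msr1 (0.26 for Ppa1), Slamf1, Vgf and Il19 for Marco (0.08 for Slamf1), and Adk, Nqo1 and Gsta3 for Cd36 (0.11 for Adk). For Scarb1 they were Tgfbr2, Madd and Plxnb2 (0.06 for Tgfbr2), for Mrc1 Abca9, Clec7a and Slc9a9 (0.09 for each), and for Cd163 Snx33, Arrb2 and Crat (0.06 for each). Fcgrt at 0.15, Ephx1 and Gpx3 were nearest to Stab1, while Thbs1, C1qa and Maf were nearest to Mertk, each at 0.13, and Rffl at 0.06, Akna and Sh3bp5 to Axl. Scarb2, whose group means spanned less than 2-fold, was not matched.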
